A study of Mus musculus with 11 samples.

Results

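Genes of lipid-storing cells are described here in mesenchymal cells of the mouse lung: Plin1, Plin2, Pparg, Cebpa, Lpl, Fabp4, Cd36, Cfd, Adipoq and Lipe. They were taken by gene symbol and make up 10 of the 24411 genes in the deposited table of read counts. The cells came from C57BL6 mice after pneumonectomy (PNX), an operation that takes out lung tissue, or after a sham operation. They were collected at day 7 or day 14, sorted by flow cytometry and sequenced in bulk. Sorting kept cells without EpCAM, CD45 and CD31 on their surface, which are marker proteins of epithelial, blood and endothelial cells. PNX at day 7, PNX at day 14 and sham at day 7 had 3 libraries each, and sham at day 14 had 2. The labels give no genotype change, age or sex, and do not state whether a library came from a single animal. A p-value therefore measures library-to-library spread alone, and part of it may be technical.

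Lipofibroblasts are fibroblasts of the alveolar wall that hold droplets of neutral lipid next to type II epithelial cells, which make surfactant. They share part of their genes with adipocytes: the transcription factors PPARγ and C/EBPα switch on fat storage genes, perilipins coat the droplets, and lipoprotein lipase, CD36 and FABP4 bring in and carry fatty acids. Hormone-sensitive lipase, encoded by Lipe, releases fatty acids from the stored lipid. Adiponectin and complement factor D (adipsin) are proteins that fat cells secrete into blood. Several of these genes are also active outside fat: Cd36 and Fabp4 in capillary endothelium, and Pparg, Cd36, Plin2 and Lpl in alveolar macrophages. In bulk RNA, fewer cells of a type and less RNA per cell cannot be told apart.

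Levels are given as CPM, the counts of a gene scaled to a common library total with TMM factors, with the libraries in the order of their replicate numbers. Total counts were 2963341 to 7614122 in PNX libraries of day 7, 4082935 to 8362119 in sham libraries of day 7, 4733716 to 7895688 in PNX libraries of day 14, and 2539628 and 9008592 in sham libraries of day 14. The 12 mesenchymal markers, among them Pdgfra, Col1a1 and Vim, summed to 10525 to 28777 CPM per library. RNA of the gated-out cells was present too. Pecam1, the gene of CD31, ranged over the libraries between 11.05 and 247 CPM, Ptprc, the gene of CD45, between 5.26 and 51.1 CPM, and Epcam between 0.580 and 13.4 CPM. Sftpc, the surfactant gene of type II cells, ranged between 23.5 and 15517 CPM. The 3 libraries with the most counts on 1462 olfactory and vomeronasal receptor genes, which lung does not normally express, were sham day 14 replicate 1 (1635 CPM), PNX day 7 replicate 2 (1214 CPM) and sham day 7 replicate 2 (653 CPM), against 91.6 to 599.8 CPM in the other libraries.

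Of the 10 genes, 9 had enough counts to be tested, and Plin1 did not. Per kilobase of the longest coding transcript, the median level over the 11 libraries was highest for Plin2 (78.2 CPM per kb), Cd36 (59.2 CPM per kb) and Lpl (48.2 CPM per kb). Fabp4 (16.3 CPM per kb) and Cfd (9.92 CPM per kb) lay between. Lipe (2.80 CPM per kb), Pparg (2.61 CPM per kb), Cebpa (1.78 CPM per kb), Adipoq (1.73 CPM per kb) and Plin1 (0.257 CPM per kb) were low. The 10 genes were thus unequal in level in this bulk RNA: the droplet coat Plin2 and the uptake genes Cd36 and Lpl were abundant, and the adipocyte regulators and hormone were scarce.

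**Figure D1:**
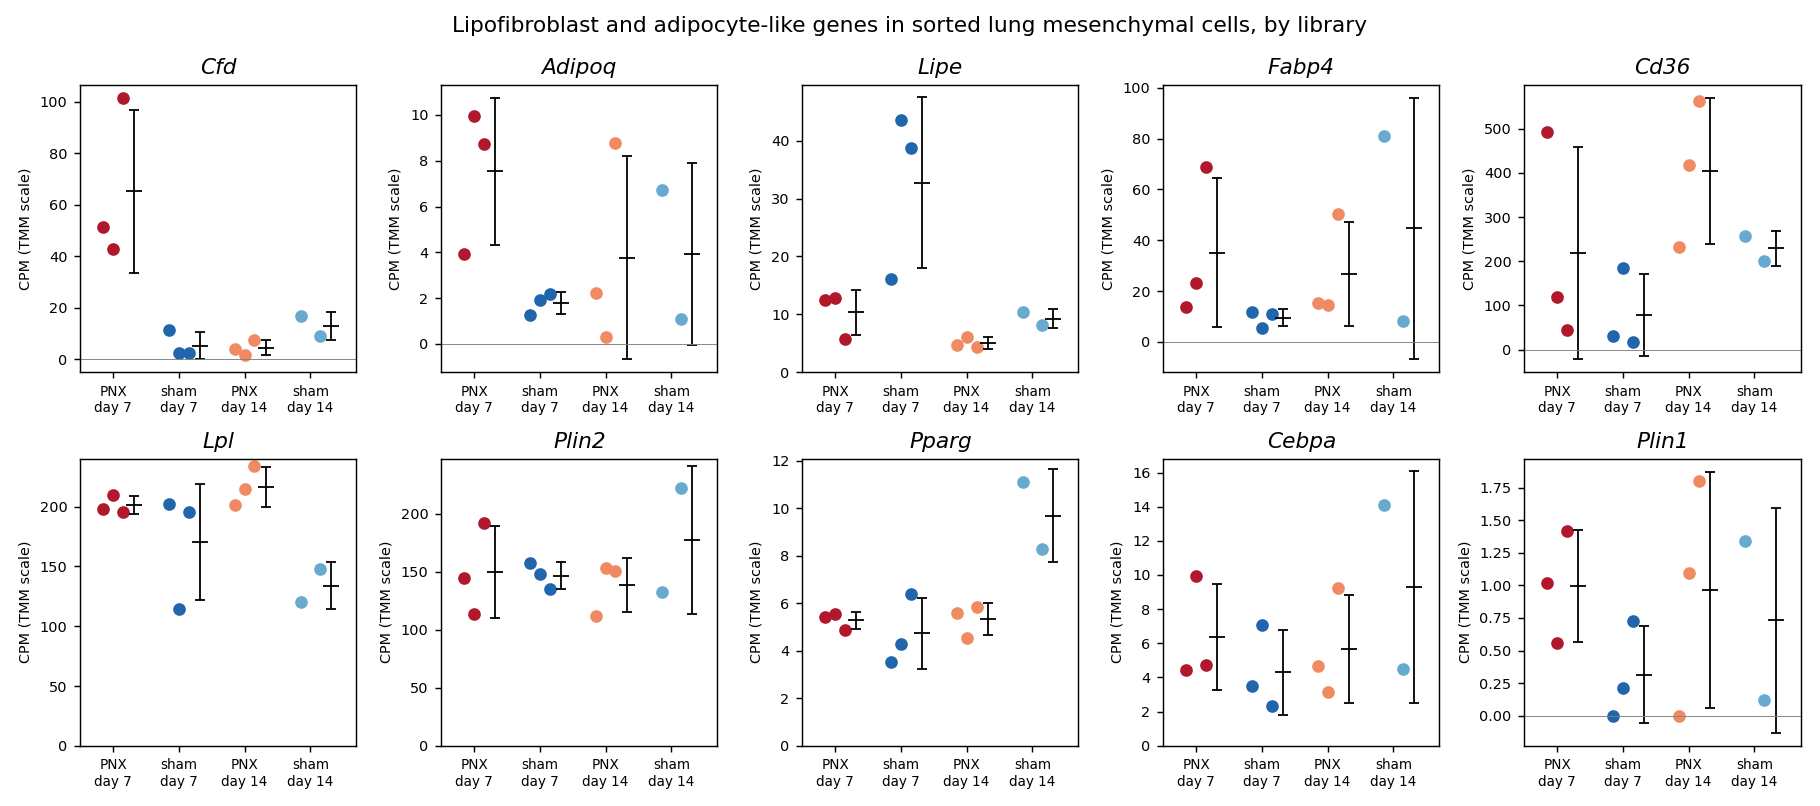
CPM (TMM scale, linear axes that differ between panels) of the 10 genes in each of the 11 libraries, as points in replicate order, with the mean and SD of each group in black (n = 3, and n = 2 for sham at day 14). Cfd stood at 42.9 CPM or more in every PNX library of day 7 and at 16.8 CPM or less in the other libraries, and Lipe was highest in sham at day 7.

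The first question was which of these genes differed between PNX and sham at day 7. Cfd, Adipoq and Fabp4 were higher in every PNX library than in any sham library, and Lipe was lower in every PNX library than in any sham library; Plin2, Pparg and Lpl stayed near their sham levels. No gene of the 9 passed an adjusted p of 0.05 in edgeR's quasi-likelihood test with Benjamini-Hochberg adjustment over 16011 genes, where 0.0375% of all genes passed as higher and 0% as lower. At an unadjusted p under 0.05, 2 of the 9 were higher (Cfd and Adipoq) and 1 lower (Lipe), beside 4.66% of all genes higher and 8.07% lower. DESeq2 called 2 of the 9, Cfd and Lipe, beside 132 of all genes as higher and 325 as lower. Limma voom with sample weights called 3, Cfd, Lipe and Cd36, beside 249 of all genes as higher and 577 as lower. Groups did not overlap for 3 genes as higher and 1 as lower, beside 9.95% and 9.57% of all genes. Of the 9 log2 fold changes 8 were above 0, as were 51.7% of those of all genes tested, and their median was 0.56, against 0.03 for all genes.

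At day 14 the same comparison gave another order. Lpl was higher in every PNX library than in either sham library, and Pparg, Cfd and Lipe were lower in every PNX library than in either sham library. None of the 9 passed the threshold in edgeR, in DESeq2 or in limma voom, where edgeR called 0.00625% of all genes higher and 0% lower. At an unadjusted p under 0.05, 1 of the 9, Cfd, was lower, beside 3.63% of all genes, and none was higher, beside 3.19%. Groups did not overlap for 1 gene as higher and 3 as lower, beside 9.57% and 8.28% of all genes. Of the 9 log2 fold changes 3 were above 0, as were 45.1% of those of all genes tested, and their median was -0.69, against -0.07 for all genes. With total counts in place of TMM factors the median of all genes was 0.21 at day 7 and -0.26 at day 14, so fold changes are given relative to the TMM scale.

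**Figure D2:**
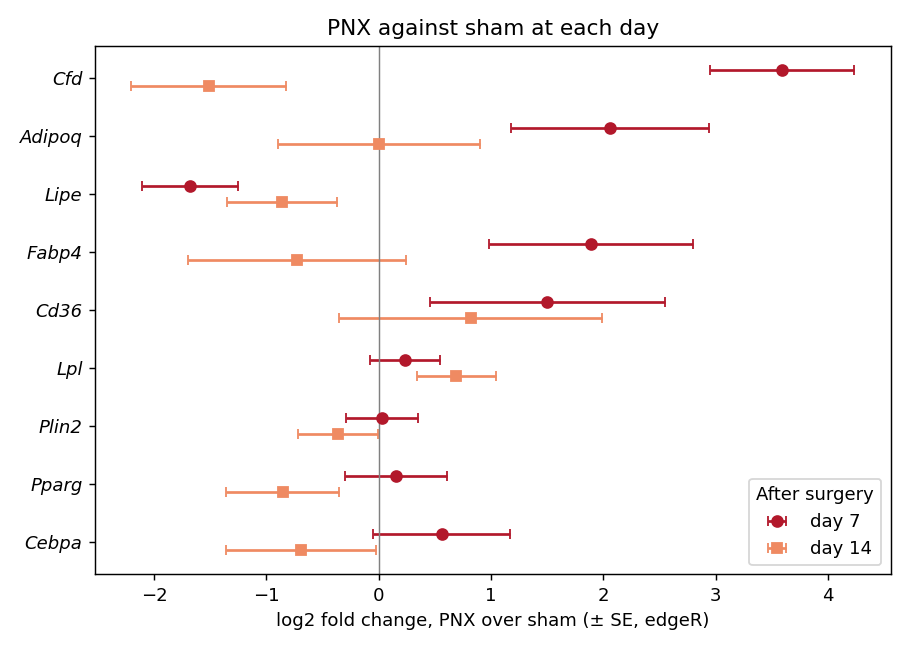
Log2 fold changes of PNX over sham (points, ± SE, edgeR) for the 9 genes tested, at day 7 (circles) and day 14 (squares). Cfd lies at 3.59 at day 7 and at -1.51 at day 14, while Lipe lies below 0 at both days.

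Of the secreted factors, Cfd had the largest difference among the 9 genes at day 7. It encodes complement factor D, the serine protease that starts the alternative complement pathway, and lies on chromosome 10 of mm10 (79890853 to 79892655, plus strand). Cfd stood at 51.5, 42.9 and 101 CPM in PNX libraries of day 7 (303, 155 and 789 counts), against 11.2, 2.36 and 2.32 CPM in sham libraries of day 7 (80, 11 and 16 counts). The lowest PNX library was well above the highest sham library. The means were 65.3 ± 31.6 CPM in PNX and 5.31 ± 5.14 CPM in sham (SD, n = 3 each), a log2 fold change of 3.59 ± 0.64 (SE, adjusted p = 0.0606 by edgeR), whose p ranked 13 of 16011. The call depended on the settings: the adjusted p was 2.58e-06 with DESeq2, 0.00933 with limma voom, 0.0136 without a filter on low counts and 0.00242 without sham day 7 replicate 1 (log2 fold change 4.79), within a range of 2.58e-06 to 0.176 over all settings tried.

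At day 14 the order for Cfd was the other way round. Levels were 4.10, 1.88 and 7.64 CPM in PNX libraries of day 14, against 16.8 and 9.15 CPM in sham libraries of day 14, with no overlap. The log2 fold change was -1.51 ± 0.69 (adjusted p = 0.709 by edgeR). The difference between the fold change at day 14 and that at day 7 was -5.11 ± 0.93 on the log2 scale (adjusted p = 0.168 for the interaction in edgeR, rank 5 of 16011). In that test 0 of the 9 genes and 0% of all genes passed in either direction. An unadjusted p under 0.05 as lower was held by 1 of the 9, Cfd, beside 4.6% of all genes. Without sham day 7 replicate 1 the interaction for Cfd was -6.30 (adjusted p = 0.00632), and without sham day 14 replicate 2 it was -5.33 (0.0418), within a range of 0.00632 to 0.606 over the settings.

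Adipoq, the gene of adiponectin, a hormone of fat cells that raises insulin sensitivity, lies on chromosome 16 (23146536 to 23158028, plus strand). Adipoq stood at 3.91, 9.97 and 8.74 CPM in PNX libraries of day 7 (23, 36 and 68 counts), against 1.27, 1.93 and 2.17 CPM in sham libraries of day 7 (9, 9 and 15 counts). All PNX libraries were above all sham libraries, at counts that were low throughout. The log2 fold change was 2.06 ± 0.88 (adjusted p = 0.332 by edgeR). At day 14 Adipoq stood at 2.24, 0.314 and 8.77 CPM in PNX libraries, against 6.72 and 1.10 CPM in sham libraries. These groups overlapped over their whole range, and the log2 fold change was 0.00 ± 0.90, turning to -0.26 with total counts and to -0.070 with RLE size factors. With each library left out in turn it lay between -1.52 and 1.72, so no direction can be given.

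The bases just before the starts of Cfd and Adipoq are shown because both genes were higher in every PNX library at day 7, and those of Lipe because it was lower in every PNX library at both days. The windows hold 250 bases before each RefSeq start in GRCm38.p6, the build also called mm10, 5′ to 3′ on the strand of the gene. Capitals mark matches on either strand to any of the motifs AGGTCA (a nuclear receptor site), CCAAT (the CCAAT box), CACGTG (an E-box), TTGCNNAA (a C/EBP-type site) and TATAAA. Cfd is at chr10:79890603-79890852, Adipoq at chr16:23146286-23146535, and Lipe, on the minus strand, has a window for each of 2 RefSeq starts, chr7:25390113-25390362 and chr7:25395988-25396237.
Cfd: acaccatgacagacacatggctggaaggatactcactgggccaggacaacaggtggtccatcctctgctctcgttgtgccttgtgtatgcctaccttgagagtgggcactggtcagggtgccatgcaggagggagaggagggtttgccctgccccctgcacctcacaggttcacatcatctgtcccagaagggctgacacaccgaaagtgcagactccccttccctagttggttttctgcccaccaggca
Adipoq: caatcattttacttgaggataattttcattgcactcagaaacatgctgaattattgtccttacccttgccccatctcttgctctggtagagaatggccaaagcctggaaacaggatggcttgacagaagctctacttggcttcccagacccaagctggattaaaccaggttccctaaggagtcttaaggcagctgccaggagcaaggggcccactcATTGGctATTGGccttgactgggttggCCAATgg
Lipe start 1: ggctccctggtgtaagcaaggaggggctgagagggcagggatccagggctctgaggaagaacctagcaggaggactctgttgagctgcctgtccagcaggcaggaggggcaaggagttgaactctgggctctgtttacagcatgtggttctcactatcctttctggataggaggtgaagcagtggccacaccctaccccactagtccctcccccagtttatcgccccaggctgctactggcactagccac
Lipe start 2: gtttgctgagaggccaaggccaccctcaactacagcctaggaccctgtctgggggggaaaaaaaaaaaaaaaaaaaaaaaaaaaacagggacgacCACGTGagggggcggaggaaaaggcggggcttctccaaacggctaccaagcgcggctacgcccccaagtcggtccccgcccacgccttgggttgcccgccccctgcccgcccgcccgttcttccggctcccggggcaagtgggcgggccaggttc
Cfd and the first Lipe start held none of the 5 motifs in these letters. Adipoq held CCAAT 3 times, at bases 34 to 30 and 27 to 23 before the start on the minus strand and 7 to 3 on the plus strand. The second Lipe start held CACGTG once, 155 to 150 bases before the start. Over 32851 RefSeq windows of the same length, 33.8% held the CCAAT box, 6.02% the E-box, 14.0% the nuclear receptor site, 9.56% the C/EBP-type site and 12.4% TATAAA. Promoter windows matched 8 of the 10 genes, without Lpl and Fabp4.

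Of the lipases, Lipe encodes hormone-sensitive lipase, an enzyme that splits stored diacylglycerol and other esters, and lies on chromosome 7 (25379527 to 25398710, minus strand). Lipe stood at 12.4, 12.7 and 5.78 CPM in PNX libraries of day 7 (73, 46 and 45 counts), against 16.02, 43.6 and 38.7 CPM in sham libraries of day 7 (114, 203 and 267 counts). All PNX libraries lay below all sham libraries, with sham replicate 1 closest to them. The means were 10.3 ± 3.92 CPM in PNX and 32.8 ± 14.7 CPM in sham (SD, n = 3 each), and the log2 fold change was -1.68 ± 0.43 (adjusted p = 0.106 by edgeR, rank 154 of 16011). Lipe passed the threshold with DESeq2 (0.0210), limma voom (0.0340), no filter on low counts (0.0363) and without sham day 7 replicate 1 (log2 fold change -2.01, 0.0141), within a range of 0.0141 to 0.485. Its exons overlap the span of the gene 4732471J01Rik on the opposite strand. Overlap with the exons of that gene was not examined. The strand setting of the counting is not given in the sources used here, so reads from there cannot be assigned with certainty.

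At day 14 Lipe was again lower after PNX, at a lower level in both groups. It stood at 4.66, 6.12 and 4.27 CPM in PNX libraries of day 14, against 10.4 and 8.05 CPM in sham libraries of day 14. The groups did not overlap, and the log2 fold change was -0.86 ± 0.49 (adjusted p = 0.763 by edgeR). In the mean of both days the log2 fold change of Lipe was -1.27 ± 0.32 (adjusted p = 0.106 by edgeR). There 0 of the 9 genes passed in edgeR, beside 0.137% of all genes as higher and 0.0562% as lower, and 2 had an unadjusted p under 0.05, Cfd and Lipe, beside 10.3% of all genes in either direction. DESeq2 called 1 of the 9, Lipe (0.0289), beside 129 of 16011 genes as higher and 175 as lower. EdgeR without sham day 7 replicate 1 called it too (0.0243), beside 44 of 15979 genes as higher and 148 as lower. The adjusted p of Lipe had a range of 0.0243 to 0.548 over the settings. For Cfd, which was higher at day 7 and lower at day 14, the mean of both days gave 1.04 ± 0.47 (adjusted p = 0.458 by edgeR).

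Lpl encodes lipoprotein lipase, which frees fatty acids from circulating triglyceride, and lies on chromosome 8 (68880491 to 68907448, plus strand). It was the steadiest of the abundant genes after PNX. Lpl stood at 198, 210 and 195 CPM in PNX libraries of day 7, against 202, 115 and 195 CPM in sham libraries of day 7. These groups overlapped, since only sham replicate 2 was apart, and the log2 fold change was 0.24 ± 0.31 (adjusted p = 0.809 by edgeR). At day 14 Lpl stood at 201, 215 and 234 CPM in PNX libraries, against 120 and 148 CPM in sham libraries. The groups did not overlap, with a log2 fold change of 0.69 ± 0.35 (adjusted p = 0.747 by edgeR). The summed CPM of the 12 mesenchymal markers was 21342 to 28101 in PNX libraries of day 14 and 10525 to 17812 in sham libraries of day 14, and its part in the difference of Lpl was not tested.

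Of the genes of fatty acid uptake and transport, Fabp4, a cytosolic fatty acid binding protein of adipocytes and capillary endothelium, lies on chromosome 3 (10204088 to 10208576, minus strand). Fabp4 stood at 13.8, 23.0 and 68.7 CPM in PNX libraries of day 7, against 11.8, 5.58 and 11.02 CPM in sham libraries of day 7. The groups did not overlap, but PNX replicate 1 was close to the highest sham library and PNX replicate 3 stood far above the others. The log2 fold change was 1.89 ± 0.91 (adjusted p = 0.437 by edgeR) and 0.89 without PNX day 7 replicate 3. That library had the lowest level of the endothelial gene Pecam1 among the 11, 11.05 CPM, and 3.73 CPM of Cdh5, the gene of VE-cadherin. It also had 584 CPM of Car3, a carbonic anhydrase gene abundant in fat and muscle, which was named after its values were seen. Car3 stood at 146, 130 and 584 CPM in PNX libraries of day 7, against 67.9, 9.66 and 140 CPM in sham libraries of day 7. The other adipocyte genes listed below were mixed in PNX day 7 replicate 3. Among PNX libraries of day 7, Lep, Retn, Slc2a4, Pck1, Aqp7, Adrb3, Adipor1 and Nnat were lowest in it. Cidec, Tusc5, Gpd1 and Adipor2 were highest in it. At day 14 Fabp4 stood at 15.1, 14.6 and 50.3 CPM in PNX libraries, against 81.0 and 8.29 CPM in sham libraries. These groups overlapped, with both sham libraries at the ends of the range. The log2 fold change was -0.72 ± 0.97 (adjusted p = 0.893 by edgeR) and turned to 1.66 without sham day 14 replicate 1, the library of highest receptor gene background. Car3 stood at 111, 7.06 and 944 CPM in PNX libraries of day 14, against 187 and 67.2 CPM in sham libraries of day 14, with the highest library of each of these day 14 groups the same as for Fabp4. The part of endothelial cells, fat cells or background in the level of Fabp4 was not tested.

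Cd36, a scavenger receptor that takes up long-chain fatty acids and lipoproteins, lies on chromosome 5 (17781690 to 17888801, minus strand). Cd36 stood at 493, 119 and 45.0 CPM in PNX libraries of day 7, against 31.8, 184 and 16.2 CPM in sham libraries of day 7. Libraries of 1 group differed more than the groups did, and the log2 fold change was 1.503 ± 1.05 (adjusted p = 0.647 by edgeR). Leaving out PNX day 7 replicate 1 gave 0.015, and leaving out sham day 7 replicate 2 gave 3.15. With limma voom and sample weights it was 2.98 (adjusted p = 0.0396, within a range of 0.0396 to 0.9998 over the settings run). At day 14 Cd36 stood at 233, 418 and 563 CPM in PNX libraries, against 257 and 201 CPM in sham libraries. PNX replicate 1 lay between the sham libraries, and the log2 fold change was 0.82 ± 1.17 (adjusted p = 0.903 by edgeR).

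Markers of other cell types were set beside Cd36. Pecam1 stood at 247, 82.2 and 11.05 CPM in PNX libraries of day 7, against 19.7, 85.7 and 11.7 CPM in sham libraries of day 7. It stood at 64.7, 98.4 and 142 CPM in PNX libraries of day 14, against 74.9 and 77.0 CPM in sham libraries of day 14. Cdh5 stood at 133, 63.7 and 3.73 CPM in PNX libraries of day 7, against 4.498, 92.4 and 4.20 CPM in sham libraries of day 7. At day 7 the libraries of each group thus had the same order for Pecam1 and Cd36, as did those of PNX at day 14. In sham at day 14 the order was opposite, with Pecam1 nearly equal in the 2 libraries (74.9 and 77.0 CPM). Of the 20 endothelial markers, 16 were higher and 4 lower after PNX at day 7 (median log2 fold change 0.57), and 10 were higher and 10 lower at day 14 (median -0.02), with 0 past the threshold in edgeR. Their sum was 529 to 2377 CPM in PNX libraries of day 7, 1061 to 1662 CPM in sham libraries of day 7, 915 to 1462 CPM in PNX libraries of day 14, and 1061 and 1157 CPM in sham libraries of day 14. Sham day 7 replicate 3 had the lowest Cd36 of the series and an endothelial sum of 1571 CPM. Most of that sum came from Aqp1 (1052.5 CPM), Tmem100 (186 CPM) and Tek (129 CPM), while Pecam1 stood at 11.7 CPM and Cdh5 at 4.20 CPM. Over the 11 libraries, which share depth and carried-over cells, Pearson's r of log2 CPM of Cd36 with the log2 summed markers was 0.34 for endothelial, 0.79 for epithelial, 0.61 for blood cell and 0.56 for macrophage markers. Such sums weigh their most abundant genes most. Lyz2 gave 683 CPM of the blood cell sum of 799 CPM in PNX day 14 replicate 1, and Cd9 of the macrophage list ranged between 193 and 741 CPM. The part of these cells' RNA in the level of Cd36 was not tested.

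**Figure D3:**
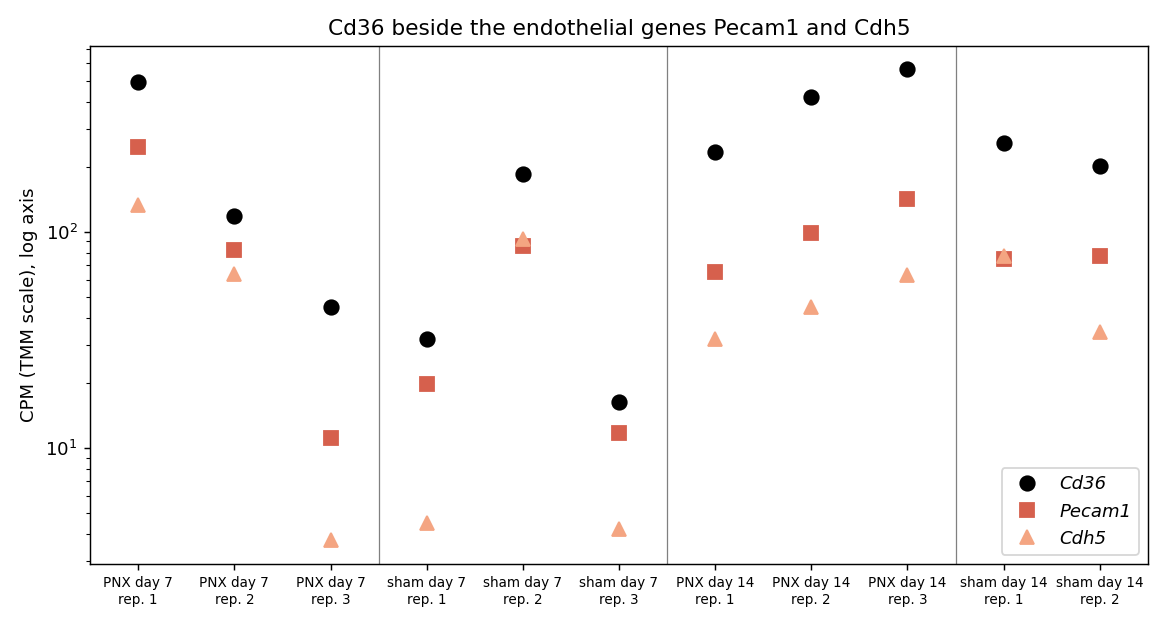
CPM (TMM scale, log axis) of Cd36 and of the endothelial genes Pecam1 and Cdh5 in each library, PNX left of sham at each day. PNX day 7 replicate 1 is the highest of the day 7 libraries for all 3 genes (493, 247 and 133 CPM), and in PNX day 7 replicate 3 and sham day 7 replicates 1 and 3 Cdh5 lies at or under 4.498 CPM.

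Alveolar macrophages express Cd36, Pparg, Plin2 and Lpl, and their markers were read in the same libraries. Chil3, a lectin of these cells, stood at 38.6, 37.7 and 48.6 CPM in PNX libraries of day 7, against 14.9, 33.7 and 3.19 CPM in sham libraries of day 7. It stood at 96.3, 111 and 50.8 CPM in PNX libraries of day 14, against 121 and 187 CPM in sham libraries of day 14. Marco, their scavenger receptor, stayed between 0.435 and 5.71 CPM in all 11 libraries. Of the 20 macrophage markers, 16 were higher and 4 lower after PNX at day 7 (median log2 fold change 0.62) and 7 were higher and 13 lower at day 14 (median -0.95), with 0 past the threshold in edgeR. At an unadjusted p under 0.05, 5 were higher at day 7, beside 4.66% of all genes, and 7 were lower at day 14, beside 3.63% of all genes. Of the 5 at day 7, Ear1, Ear2 and Olr1 were low. They averaged 4.92, 1.47 and 3.19 CPM in PNX, against 0.665, 0.143 and 0.663 CPM in sham. Chil3 and Mrc1, the others, averaged 41.6 and 11.9 CPM in PNX, against 17.3 and 4.25 CPM in sham. Of the 20 blood cell markers, 11 were higher and 9 lower after PNX at day 7 (median 0.28). At an unadjusted p under 0.05, 1 was higher and 3 were lower, beside 4.66% and 8.07% of all genes. All 20 blood cell markers were lower after PNX at day 14 (median -2.64), 16 of them at an unadjusted p under 0.05, beside 3.63% of all genes, and 0 past the threshold. Their sum was 357 to 799 CPM in PNX libraries of day 14, and 939 and 1023 CPM in sham libraries of day 14.

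Of the droplet coats, Plin2 encodes the perilipin found on droplets of most cell types and lies on chromosome 4 (86648386 to 86670060, minus strand). Plin2 stood at 145, 113 and 192 CPM in PNX libraries of day 7, against 157, 148 and 135 CPM in sham libraries of day 7. The sham libraries lay inside the range of the PNX libraries, and the log2 fold change was 0.03 ± 0.32 (adjusted p = 0.976 by edgeR). At day 14 Plin2 stood at 112, 153 and 150 CPM in PNX libraries, against 132 and 222 CPM in sham libraries. These groups overlapped too, with a log2 fold change of -0.36 ± 0.36 (adjusted p = 0.857 by edgeR).

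Plin1 encodes the perilipin of adipocyte droplets, which controls access of the lipases, and lies on chromosome 7 (79720218 to 79732903, minus strand). Plin1 had 6, 2 and 11 counts in PNX libraries of day 7, against 0, 1 and 5 counts in sham libraries of day 7. It had 0, 7 and 8 counts in PNX libraries of day 14, against 4 and 1 counts in sham libraries of day 14. These counts are too few for a comparison, and it was not tested. The highest library held 1.80 CPM, and a count of 0 in sham day 7 replicate 1 allows up to 0.4217 CPM, which covers counting error only.

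Of the transcription factors, Pparg encodes PPARγ, the nuclear receptor that drives fat cell formation, and lies on chromosome 6 (115360951 to 115490399, plus strand). Pparg stood at 5.44, 5.54 and 4.88 CPM in PNX libraries of day 7, against 3.51, 4.30 and 6.38 CPM in sham libraries of day 7. The PNX libraries lay inside the range of the sham libraries, and the log2 fold change was 0.16 ± 0.46 (adjusted p = 0.917 by edgeR). At day 14 Pparg stood at 5.60, 4.55 and 5.84 CPM in PNX libraries, against 11.1 and 8.29 CPM in sham libraries. The groups did not overlap, since both sham libraries stood above all others of the series, with a log2 fold change of -0.85 ± 0.50 (adjusted p = 0.778 by edgeR). The sham libraries of day 14 also had the highest sums of blood cell markers, whose part in the level of Pparg was not tested.

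Cebpa encodes C/EBPα, which acts with PPARγ to keep the fat cell program on, and lies on chromosome 7 (35119293 to 35121928, plus strand). Cebpa stood at 4.42, 9.97 and 4.75 CPM in PNX libraries of day 7, against 3.51, 7.09 and 2.32 CPM in sham libraries of day 7. The groups overlapped, and replicate 2 was the highest in both, with a log2 fold change of 0.56 ± 0.61 (adjusted p = 0.767 by edgeR). At day 14 Cebpa stood at 4.66, 3.14 and 9.22 CPM in PNX libraries, against 14.1 and 4.51 CPM in sham libraries. These groups overlapped, with a log2 fold change of -0.69 ± 0.67 (adjusted p = 0.851 by edgeR), which turned to 0.34 without the 3 libraries of highest receptor gene background. The highest Cebpa library of each of 3 groups was among those 3, and the part of background in its level was not tested. Exons of Pparg overlap Gm44079 and the exon of Cebpa overlaps Gm45091, each on the opposite strand.

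The days were compared within each operation. After PNX, Cfd was lower at day 14 than at day 7, with a log2 fold change of -3.87 ± 0.66 (adjusted p = 0.186 by edgeR, rank 2 of 16011). Of the 9 genes Cfd alone did not overlap between the days, beside 9.08% of all genes as lower. DESeq2 (2.40e-06), limma voom (0.0119), no filter (0.0274), a fit of only the groups compared (0.00622) and the fit without sham day 7 replicate 1 (0.00763) put it past the threshold, within a range of 2.40e-06 to 0.704. Lipe was lower as well (-1.02 ± 0.44, adjusted p = 0.724 by edgeR), with days that overlapped. In that comparison 0 of the 9 genes passed in edgeR, as did 0% of all genes, and 2 had an unadjusted p under 0.05, Cfd and Lipe, beside 6.85% of all genes.

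After sham, Lipe was lower at day 14 than at day 7, with a log2 fold change of -1.84 ± 0.50 (adjusted p = 0.116 by edgeR) and no overlap. It passed with DESeq2 (0.0238) and without sham day 7 replicate 1 (0.0216), within a range of 0.0216 to 0.734. Pparg and Cd36 were higher at day 14 in both sham libraries than in any sham library of day 7. Of the 9 genes 0 passed in edgeR, beside 0.0187% of all genes as higher and 0% as lower, and 1, Lipe, had an unadjusted p under 0.05, beside 14.3% of all genes. Groups did not overlap for 2 of the 9 as higher and 1 as lower, beside 12.5% and 11.8% of all genes. Over the 4 groups, the means of Cfd were in the order PNX day 7, sham day 14, sham day 7 and PNX day 14, and those of Lipe sham day 7, PNX day 7, sham day 14 and PNX day 14. Neighbours in these orders differed by more than the larger SD for Cfd, except sham day 7 and PNX day 14, and for Lipe, except PNX day 7 and sham day 14. The ranges of sham day 14 and sham day 7 still overlapped for Cfd. For Pparg sham day 14 stood above PNX day 14 by more than the SD, and for Cd36 PNX day 14 stood above sham day 14 by more than the SD with ranges that overlapped. For Plin2, Cebpa, Fabp4, Adipoq, Lpl and Plin1 no neighbours differed by more than the larger SD.

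Other genes of lipid storage were read from 7 lists, which shared a few genes. G0s2 counted in the droplet and lipofibroblast lists, Zfp423 in the transcription factor and lipofibroblast lists, and Cidec in the droplet and adipocyte lists. At day 7 and at day 14 none of the list genes passed the threshold in edgeR, and in the mean of both days 2 did, as lower. Klf15, a transcription factor of adipogenesis and of glucocorticoid responses, fell by 1.71 on the log2 scale (SE 0.30, adjusted p = 0.0204 by edgeR). Klf15 stood at 7.48, 8.03 and 10.9 CPM in PNX libraries of day 7, against 15.04, 29.0 and 26.2 CPM in sham libraries of day 7. It stood at 6.90, 2.67 and 4.495 CPM in PNX libraries of day 14, against 16.8 and 21.2 CPM in sham libraries of day 14. Every PNX library was below every sham library of its day. Fgfr4, a fibroblast growth factor receptor gene of the lung lipofibroblast list, fell by 1.92 (SE 0.33, adjusted p = 0.0137 by edgeR), with 9.01, 7.75 and 7.20 CPM in PNX libraries of day 7 against 10.96, 32.2 and 23.9 CPM in sham libraries of day 7. It had 5.41, 4.39 and 3.60 CPM in PNX libraries of day 14, against 13.8 and 32.1 CPM in sham libraries of day 14. Here, too, the groups did not overlap at either day. Both calls were lost with limma voom (adjusted p = 0.105 for Klf15 and 0.154 for Fgfr4) and without PNX day 14 replicate 2 (0.0817 and 0.0745), PNX day 14 replicate 3 (0.0848 and 0.0728) or sham day 14 replicate 2 (0.0950 and 0.101). That of Klf15 was also lost without PNX day 7 replicate 1 (0.0639), sham day 7 replicate 3 (0.0568) or all of the 3 libraries of highest background (0.0718).

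At day 7 the lists lay mostly below 0. Of 16 lung lipofibroblast genes 2 were higher and 14 lower (median log2 fold change -0.60), of 15 genes of fatty acid and triglyceride synthesis 3 were higher and 12 lower (-0.63), and of 18 adipogenic transcription factors 5 were higher and 13 lower (-0.45). Of 9 perilipin and droplet genes 3 were higher and 6 lower (-0.47), and of 15 genes of fatty acid uptake 5 were higher and 10 lower (-0.31). Lipolysis and oxidation genes (5 of 14 higher, median -0.11) and adipocyte genes (7 of 13 higher, 0.18) were more even. The median of all genes tested was 0.03. An unadjusted p under 0.05 was reached as lower by 5 lipofibroblast genes, 5 transcription factors, 4 synthesis genes, 4 uptake genes, 3 adipocyte genes and 1 droplet gene, beside 8.07% of all genes. It was reached as higher by 1 droplet gene, 1 lipolysis gene and 1 uptake gene, beside 4.66% of all genes.

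The list genes of smallest p at day 7 did not pass the threshold in edgeR. Scd1, the stearoyl-CoA desaturase, averaged 93.7 CPM in PNX and 248 CPM in sham (log2 fold change -1.41 ± 0.50, adjusted p = 0.226 by edgeR). Lpin1, a phosphatidate phosphatase, averaged 25.9 CPM in PNX and 53.7 CPM in sham (-1.05 ± 0.36), and Srebf1, which encodes a regulator of lipid synthesis, 24.2 CPM in PNX and 54.2 CPM in sham (-1.17 ± 0.39). The fatty acid transporters Slc27a1 and Slc27a3 averaged 12.5 and 15.2 CPM in PNX, against 38.1 and 36.1 CPM in sham (-1.59 ± 0.40 and -1.25 ± 0.38). Those were all lower after PNX. Acsl4, an acyl-CoA synthetase of polyunsaturated fatty acids, was higher, at 132 CPM in PNX and 62.3 CPM in sham (1.09 ± 0.38), as were Hilpda, an inhibitor of triglyceride lipase on droplets (40.7 CPM in PNX, 20.1 CPM in sham, 1.01 ± 0.40), and Prkar2b, a regulatory subunit of protein kinase A (8.94 CPM in PNX, 3.80 CPM in sham, 1.24 ± 0.48). Adrb3, the β3-adrenergic receptor of fat cells, averaged 6.43 CPM in PNX and 16.7 CPM in sham (-1.38 ± 0.39), Slc2a4, the insulin-responsive glucose transporter, 2.46 CPM in PNX and 6.25 CPM in sham (-1.35 ± 0.56), and the droplet coat Plin4 9.54 CPM in PNX and 18.3 CPM in sham (-0.94 ± 0.38). Col13a1, a transmembrane collagen of alveolar fibroblasts, averaged 24.5 CPM in PNX and 61.4 CPM in sham (-1.33 ± 0.37), and Klf15 and Fgfr4 had log2 fold changes of -1.40 ± 0.41 and -1.48 ± 0.44. The adjusted p of these 14 genes at day 7 was 0.106 to 0.318 in edgeR. They were picked for their small p in the same libraries, so calls with other settings are no separate test of them. DESeq2 called 4 of them, Klf15, Slc27a1, Adrb3 and Col13a1, beside 132 of all genes as higher and 325 as lower. Limma voom called 6, Hilpda, Klf15, Lpin1, Slc27a1, Adrb3 and Col13a1, beside 249 and 577 of all genes. EdgeR without a filter called 1, Slc27a1, beside 44 and 134 of 23040 genes. EdgeR without sham day 7 replicate 1 called 6, Klf15, Srebf1, Slc27a1, Slc27a3, Col13a1 and Fgfr4, beside 39 and 386 of 15979 genes.

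**Figure D4:**
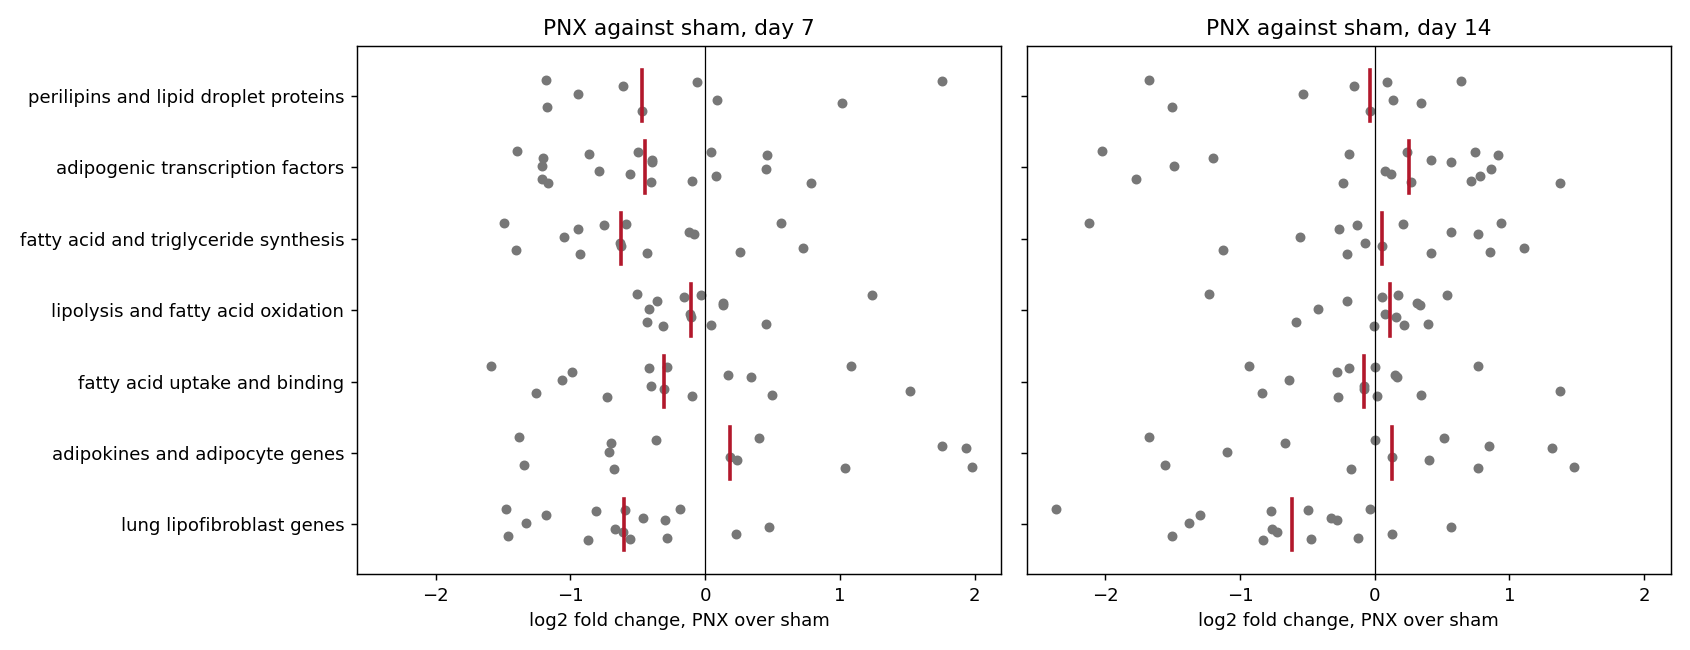
Log2 fold changes of PNX over sham (grey points, 1 per gene tested, spread vertically for legibility) in 7 lists of lipid genes at day 7 (left) and day 14 (right), with the median of each list in red. The lung lipofibroblast list has medians of -0.60 at day 7 and -0.61 at day 14, while that of the adipogenic transcription factors lies at -0.45 at day 7 and 0.25 at day 14.

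At day 14 the lipofibroblast list again had 2 genes higher and 14 lower (median log2 fold change -0.61), and the other 6 lists had medians between -0.08 and 0.25, against -0.07 for all genes tested. An unadjusted p under 0.05 was reached as lower by 4 lipofibroblast genes, 3 transcription factors and 1 gene each of the droplet, synthesis, lipolysis and adipocyte lists, beside 3.63% of all genes. It was reached as higher by 2 transcription factors, 1 synthesis gene and 1 uptake gene, beside 3.19% of all genes. Wnt2, a Wnt ligand gene of lung mesenchyme, averaged 26.5 CPM in PNX and 68.9 CPM in sham (-1.38 ± 0.38), and Fgfr4 had a log2 fold change of -2.37 ± 0.48 (adjusted p = 0.0905 by edgeR). G0s2, an inhibitor of triglyceride lipase, averaged 93.9 CPM in PNX and 267 CPM in sham (-1.51 ± 0.47). Cebpd, an early adipogenic factor, averaged 125 CPM in PNX and 352 CPM in sham (-1.49 ± 0.44), and Klf15 had -2.03 ± 0.45 (adjusted p = 0.119 by edgeR). Dgat2, which completes triglyceride synthesis, averaged 1.69 CPM in PNX and 7.25 CPM in sham (-2.12 ± 0.79), whereas Dgat1, of the same reaction, averaged 20.8 CPM in PNX and 11.4 CPM in sham (0.86 ± 0.39). Those enzymes differed in opposite directions, neither past the threshold. Acsl4 was higher at this day too, at 216 CPM in PNX and 83.1 CPM in sham (1.38 ± 0.44). Ebf1 averaged 110 CPM in PNX and 42.2 CPM in sham (1.38 ± 0.56), and Klf4 645 CPM in PNX and 375 CPM in sham (0.78 ± 0.36); both encode transcription factors that act in adipogenesis. Pdk4, an inhibitor of pyruvate oxidation, averaged 7.69 CPM in PNX and 17.9 CPM in sham (-1.23 ± 0.50), and Adrb3 6.17 CPM in PNX and 13.1 CPM in sham (-1.10 ± 0.43). The adjusted p of these 12 genes at day 14 was 0.0905 to 0.706 in edgeR. These genes, too, were picked for their small p in the same libraries. DESeq2 called 2 of them, Klf15 (0.0102) and Fgfr4 (0.00332), beside 65 of all genes as higher and 44 as lower. Fgfr4 also passed in edgeR without a filter (0.0291) and with only the groups compared (0.0308). Those fits called 14 and 20 of all genes as higher, and 13 and 32 as lower.

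Of 12 markers of white and brown adipocytes 9 were tested. Several of the markers, among them Lep, Retn, Slc2a4, Tusc5 and Adrb3, were also in the list of adipocyte genes above. Lep, the leptin gene, stayed between 0 and 5.26 CPM, Retn, the resistin gene, between 0 and 4.37 CPM, and Ucp1, the uncoupling protein of brown fat, between 0 and 1.38 CPM. Higher levels were held by Tusc5, a regulator of glucose transport in fat cells (8.31 to 45.9 CPM), and Adrb3 (4.86 to 19.5 CPM). After PNX 6 markers were higher and 3 lower at day 7 (median log2 fold change 0.73), and 4 were higher and 5 lower at day 14 (median -0.66), with 0 past the threshold in edgeR. At an unadjusted p under 0.05 none was higher at either day, and 2 were lower at day 7 and 1 at day 14, beside 8.07% and 3.63% of all genes. Retn, Cidec and Thrsp were higher in every PNX library of day 7 than in any sham library of day 7, and Slc2a4 and Adrb3 were lower in every PNX library of day 7 than in any sham library of day 7. Groups of day 7 did not overlap for 9.95% of all genes as higher and 9.57% as lower. Retn stood at or under 1.87 CPM in all of these libraries, and Cidec at or under 1.27 CPM in the sham libraries. The 12 markers summed to 50.4 to 58.2 CPM in PNX libraries of day 7, 46.4 to 60.4 CPM in sham libraries of day 7, 42.4 to 84.7 CPM in PNX libraries of day 14, and 63.4 and 70.2 CPM in sham libraries of day 14. The sums overlapped at both days.

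The 9 genes had no common pattern over the 11 libraries. Among their pairs, Pearson's r of log2 CPM was highest for Fabp4 and Adipoq (0.72), Cfd and Adipoq (0.69) and Cebpa and Adipoq (0.67), and lowest for Fabp4 and Lipe (-0.55). These values describe libraries that share depth, background and carried-over cells. Of 9425 genes with a mean log2 CPM of at least 3, without Gm and Rik gene models, those most like Cd36 over the 11 libraries were Gimap1 (r = 0.98), BC028528 (0.97) and Adgrf5 (0.97). Most like Lipe were Fam43a (0.97), Rbm42 (0.97) and Ipo13 (0.95), and most like Cebpa were Dido1 (0.94), Slc35e3 (0.92) and Yeats4 (0.90). For Lpl they were Exo5 (0.93), Inhba (0.92) and Cd109 (0.92), for Pparg Il6 (0.90), Oaz1 (0.79) and Nt5m (0.78), and for Plin2 Iigp1 (0.90) and Igtp (0.88). For Adipoq they were Slfn5 (0.88), Mblac2 (0.86) and Sorbs2 (0.84), for Fabp4 Zxdb (0.87), Mycbp (0.85) and Fmn1 (0.84), and for Cfd Shb (0.87), Ubxn8 (0.81) and Mrpl12 (0.81). No gene appeared for more than 1 of the 9.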

How the data were processed

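RNA of sorted mesenchymal cells from C57BL6 mouse lung was sequenced in 11 libraries, grouped by the labels' surgery (PNX or sham) and day (7 or 14). The authors deposited whole read counts per gene symbol, and the submitters' processing notes name mm10 and bcl2fastq 2.20.0.422; the aligner, the counting tool and the strand setting are not given in the sources used here. The 10 genes, the lists and the rule for named genes were chosen with earlier results of these data known.

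The tests used edgeR 4.0.16 in R 4.3.3. filterByExpr, by group, kept 16011 of 24411 genes; TMM factors were computed, and 1 quasi-likelihood model (robust) with a mean for each of the 4 groups was fitted to the 11 libraries. It gave PNX against sham (at day 7, at day 14, averaged over the days), the interaction, and the change between days for each operation. Benjamini-Hochberg adjustment covered the 16011 genes, and 0.05 was the threshold. The SE was derived from the fold change and F and is approximate. No 2 libraries of a group were identical or agreed within sampling noise. From each list, the text names up to 2 genes of smallest p in each direction per day where their unadjusted p was under 0.05, genes past the threshold in the mean of both days, and for each of the 9 tested genes the 3 with the highest Pearson r, of which 1 is not reported here. Positions, transcript lengths and overlaps are from GENCODE M21 (mm10), promoter windows from RefSeq (GRCm38.p6). Alternatives were RLE factors, total counts, DESeq2 1.42.0, limma 3.58.1 voom with sample weights, other filters, only the groups compared, a replicate block, leaving out each library, and leaving out the 3 of highest background. For list genes these were added after seeing the data. The fit was tested on simulated data.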

Additional observations from a re-analysis of the deposited data

Results flagged for a closer look

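Cfd was the only one of the 9 genes tested whose order of the groups was turned round between the days in every library: all 3 PNX libraries of day 7 were above all 3 sham libraries of day 7, and all 3 PNX libraries of day 14 were below both sham libraries of day 14. Taken singly, 9.95% of all genes did not overlap as higher at day 7, and 8.28% as lower at day 14. The share of all genes with both was not counted. The difference of the PNX against sham log2 fold change between day 14 and day 7 was -5.11 (SE 0.93). The difference itself was tested as the interaction and did not pass the threshold (adjusted p = 0.168 by edgeR).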

How the results depend on the processing

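The count of the 9 genes past the threshold was 0 in edgeR for every comparison. For PNX against sham at day 7 it was 2 with DESeq2, 3 with limma voom, 2 without a filter, 1 with the replicate block, and 0 to 2 with each library left out. There, DESeq2 called 132 of all genes as higher and 325 as lower, and limma voom 249 and 577. EdgeR called 44 and 134 without a filter, and 9 and 0 with the replicate block. It called 39 and 386 without sham day 7 replicate 1, against 6 and 0 in the main edgeR fit. In the mean of both days the count of the 9 was 1 with DESeq2 and 0 to 1 with each library left out. Over all genes, DESeq2 called 129 as higher and 175 as lower there. EdgeR without sham day 7 replicate 1 called 44 and 148, against 22 and 9 in the main edgeR fit. For the interaction the count of the 9 was 1 with the replicate block and 0 to 1 with each library left out. Over all genes, the replicate block gave 0 as higher and 1 as lower. Leaving out sham day 7 replicate 1 gave 0 and 2, against 0 and 0 in the main edgeR fit. For day 14 against day 7 after PNX the count of the 9 was 1 with DESeq2, limma voom, no filter, only the groups compared and the replicate block, and 0 to 1 with each library left out. Over all genes, DESeq2 called 27 as higher and 31 as lower, and limma voom 82 and 29. EdgeR called 3 and 5 without a filter, 50 and 33 with only the groups compared, and 0 and 1 with the replicate block. It called 0 and 2 without sham day 7 replicate 1, against 0 and 0 in the main edgeR fit. After sham, DESeq2 called 316 of all genes as higher and 353 as lower. Leaving out sham day 7 replicate 1 gave 138 and 407, against 3 and 0 in the main edgeR fit. Of the 9, the count there was 1 with DESeq2 and 0 to 2 with each library left out, 2 without sham day 7 replicate 1 (Cfd and Lipe). At day 14 it stayed 0 in all settings run.

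The direction of Cfd, Lipe, Cd36 and of Adipoq and Fabp4 at day 7 was kept in all settings run. The log2 fold change at day 7 turned for Plin2 (-0.035 with limma voom, -0.021 without a filter, -0.23 to 0.18 with each library left out), Pparg (-0.024 to 0.44) and Lpl (-0.032 without the 3 libraries of highest background, -0.027 to 0.37). At day 14 it turned for Adipoq (-0.070 with RLE factors, -0.26 with total counts, -0.090 with DESeq2, -0.016 with 1 CPM in 5 libraries, -0.089 with only the groups compared, -0.75 with the replicate block, -1.52 to 1.72), Fabp4 (0.23 with limma voom, 1.70 without the 3 libraries, -1.53 to 1.66), Cebpa (0.34 without the 3 libraries, -1.20 to 0.30) and Plin2 (-0.69 to 0.21). The cause was not tested. Total counts moved the median of all genes to -0.38 in the interaction and -0.35 between days after PNX, against -0.01 and -0.06 with TMM factors. DESeq2 gave no adjusted p for Cfd in the interaction. The mean of both days and the interaction use all groups, so a fit of only the groups compared has no value there.

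Same-numbered libraries deviated together at day 7 with r of -0.12, 0.53 and 0.34 and at day 14 with 0.10 and 0.18. Not every library at day 7 correlated best with its own number. Deviations from the mean of so few libraries are tied to each other, so these r cannot decide whether same-numbered libraries were paired. The labels do not state a pairing. With the replicate block Cfd passed at day 7 (3.69, adjusted p = 0.0147 by edgeR), in the interaction (-5.49, 0.0383) and between days after PNX (-3.95, 0.0282), and Klf15 and Fgfr4 lost their call in the mean of both days (0.0583 and 0.0518).

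Groups of 2 or 3 libraries and few counts limit the low genes: Plin1 was not tested, and Adipoq, Cebpa and Pparg had 2 to 68 counts per library.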
